A study of Homo sapiens with 16 samples.

Results

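The lines MDA-MB-231 and SUM159, the second titled SUM159PT, are 2 established human cell lines of triple-negative breast cancer. They were compared with each other while both were exposed to CH6953755, here called YES1i, which blocks the tyrosine kinase YES1. The comparison took 8 of the 16 libraries of the series, chosen by the labelled line and treatment: 4 of MDA-MB-231 and 4 of SUM159, each given 8 uM of YES1i for 48 h. The other 8 libraries, 4 of each line given the solvent DMSO for 48 h, were the baseline against which the treated state was read. No genetic change is labelled in any group, and all cells carry the genotype label WT. MDA-MB-231 was grown in RPMI and SUM159 in Ham's F12, at different plating numbers, so line, medium and plating cannot be told apart. The series text calls the 4 libraries of a group technical replicates, so every p-value measures only the spread between these libraries. Each line stands for itself and not for a type of tumour. The questions were how the lines differ under the inhibitor, which differences are present under YES1i and not in DMSO, and which shrink.

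YES1 belongs to the Src family of tyrosine kinases, which pass signals from growth factor receptors and integrins to ERK, to the YAP and TAZ coactivators and to the cytoskeleton. Several of the genes below are read-outs of other control systems. SREBP transcription factors switch on the enzymes of cholesterol and fatty acid synthesis when membrane sterol is low, while LXR receptors switch on cholesterol export when it is high. NF-kB drives CXC chemokines and its own inhibitors, ERK drives a set of feedback phosphatases and Sprouty proteins, and TFEB-family factors drive genes of lysosomes.

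Total counts ran from 15876171 to 36261542 per library, and from 16104898 to 23762350 in the YES1i libraries. Where a gene had 0 counts, its level could still be as high as 3 counts, or 0.0859 to 0.194 CPM by library, a limit for counting error only. Library makeup differed between the lines under YES1i. The 20 genes with most counts held 9.50% to 9.67% of counts in MDA-MB-231 and 12.5% to 12.7% in SUM159, and protein-coding genes held 96.9% to 97.1% and 95.7% to 96.2%. Each two-sided exact permutation p was 0.0286, the smallest that 70 regroupings allow, and 0.0572 adjusted over 6 measures. Replicate 2 of SUM159 under YES1i stood apart from the other libraries of its group. Its chi-square over degrees of freedom against them was 12.8 to 24.8, and that among the other 3 was 4.07 to 6.79. It also had the lowest protein-coding share, 95.7%. Without it the counts of classes and calls given below stayed within 1.5 times (in the same order, MDA-MB-231 then SUM159: 3726 and 3762 large differences, 176 and 114 appeared, 94 and 103 lost).

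The labelled triple-negative state was checked in the YES1i libraries. ESR1, the oestrogen receptor, had a mean of 0.130 ± 0.182 CPM in MDA-MB-231 and 0.485 ± 0.0871 CPM in SUM159. PGR, the progesterone receptor, had 0 counts over the 4 MDA-MB-231 libraries and 3 over the 4 of SUM159. ERBB2, the gene of HER2, was at 112 ± 5.76 CPM and 109 ± 7.75 CPM (SD, n = 4), with no difference called. Of 12 leukocyte markers, which summed to 13.0 to 15.3 CPM in MDA-MB-231 and 2.55 to 3.02 CPM in SUM159, FCGR3A and MS4A1 were at 0 in all 8 YES1i libraries, and CSF1R and CD14 alone passed the low-count filter. The 12 endothelial and fibroblast markers summed to 31.5 to 36.4 CPM in MDA-MB-231 and 97.1 to 105 CPM in SUM159. In bulk RNA, fewer cells with a transcript and less transcript per cell cannot be told apart.

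Throughout, a line difference is the log2 level of MDA-MB-231 minus that of SUM159, so that a positive value means higher in MDA-MB-231. The change of the line difference is its value under YES1i minus its value in DMSO, tested as its own contrast. Genes with an adjusted p below 0.05 count as called (edgeR's quasi-likelihood test, Benjamini-Hochberg over 17647 tested genes), and a difference was large when it was called and at least 2-fold. Levels are CPM, the counts divided by the TMM-scaled library total and set to a common library size. A level with ± is the mean and SD of the 4 libraries of a group (n = 4).

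Under YES1i the lines differed in most of the transcriptome. Of 17647 tested genes 14033 were called (79.5%), 7237 higher in MDA-MB-231 (41%) and 6796 higher in SUM159 (38.5%). The difference was large in 7339 genes (41.6%), of which 3617 were higher in MDA-MB-231 (20.5%) and 3722 in SUM159 (21.1%). The 4 libraries of one line did not overlap those of the other in 71.8% of tested genes under YES1i and in 72.4% in DMSO. In DMSO 13514 genes were called (76.6%), with a large difference in 6802 (38.5%), higher in MDA-MB-231 in 3333 (18.9%) and in SUM159 in 3469 (19.7%). Most large differences were shared by the states: 5752 genes were large in both, 78.4% of those under YES1i and 84.6% of those in DMSO, and in 5724 of them the same line was higher. The median size of the log2 line difference was 0.80 under YES1i and 0.72 in DMSO.

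The line difference itself changed with YES1i in 5489 genes (31.1%), 3362 toward MDA-MB-231 (19.1%) and 2127 toward SUM159 (12.1%). This split depends on how the libraries are scaled. Calls toward MDA-MB-231 made up 61.2% of these calls, but 43.9% with upper quartile scaling, which gave 2339 toward MDA-MB-231 and 2987 toward SUM159. That scaling shifted the median line difference of all tested genes under YES1i from 0.02 to -0.09 on the log2 scale. The counts of the lists below can move with it, and they are given under another scaling for some lists only.

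**Figure D1:**
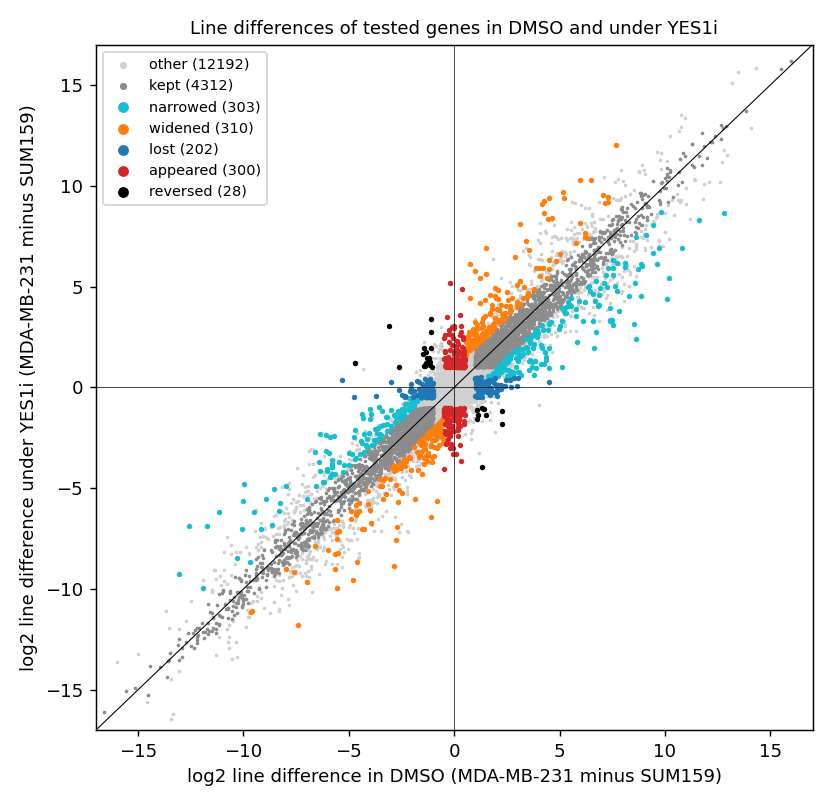
Each point is a tested gene, placed by its log2 line difference in DMSO (x axis) and under YES1i (y axis), with the diagonal marking an equal difference in both states. The points hug the diagonal, while the 300 genes whose difference appeared lie along the vertical axis, the 202 lost ones along the horizontal axis and the 28 reversed ones in the opposite quadrants.

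Differences that were large in one state and small in the other, or that turned, were a small share of the whole. A difference was said to appear when it was large under YES1i and under 0.5 in DMSO (absolute log2), to be lost in the opposite case, to reverse when it was large in both states in opposite directions, and to narrow or widen when it kept its direction and moved by at least 1. Each of these also needed the change to be called. By this rule 300 differences appeared (1.7% of tested genes), 180 of them higher in MDA-MB-231 (1.02%) and 120 higher in SUM159 (0.68%). Another 202 were lost (1.14%), of which 98 had been higher in MDA-MB-231 (0.555%) and 104 in SUM159 (0.589%). The rule is one of size, and many of these differences were called in both states. No call was made in DMSO for 71 of the 180 and 84 of the 120 that appeared. Under YES1i no call was made for 66 of the 98 and 36 of the 104 that were lost. In 28 genes the difference reversed (0.159%), 19 of them turning to MDA-MB-231 (0.108%) and 9 to SUM159 (0.051%). It narrowed in 303 (1.72%), 176 with MDA-MB-231 higher (0.997%) and 127 with SUM159 higher (0.72%). It widened in 310 (1.76%), 161 with MDA-MB-231 higher (0.912%) and 149 with SUM159 higher (0.844%), against 4312 large differences that kept their direction and their size within 1 log2 unit (24.4%).

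The classes differed in which line had moved. Of the 180 differences that appeared with MDA-MB-231 higher, the level in MDA-MB-231 had gone up by more than that of SUM159 moved in 111, and the level in SUM159 had gone down by more in 69. Of the 120 that appeared with SUM159 higher, 65 came with a larger upward move in SUM159 and 55 with a larger downward move in MDA-MB-231. Of the 176 narrowed differences with MDA-MB-231 higher, 152 had their larger move upward in SUM159, and in 96 of the 176 the SUM159 level stayed below 1 CPM in both states. Of the 127 narrowed with SUM159 higher, 103 had their larger move upward in MDA-MB-231. Protein-coding genes made up 166 of the 180 that appeared in MDA-MB-231 and 70 of the 120 that appeared in SUM159. Asking only for genes at a mean of 1 CPM or more in every group, a filter added after the data were seen, left 52 and 62 narrowed differences and 67 of the 120.

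**Figure D2:**
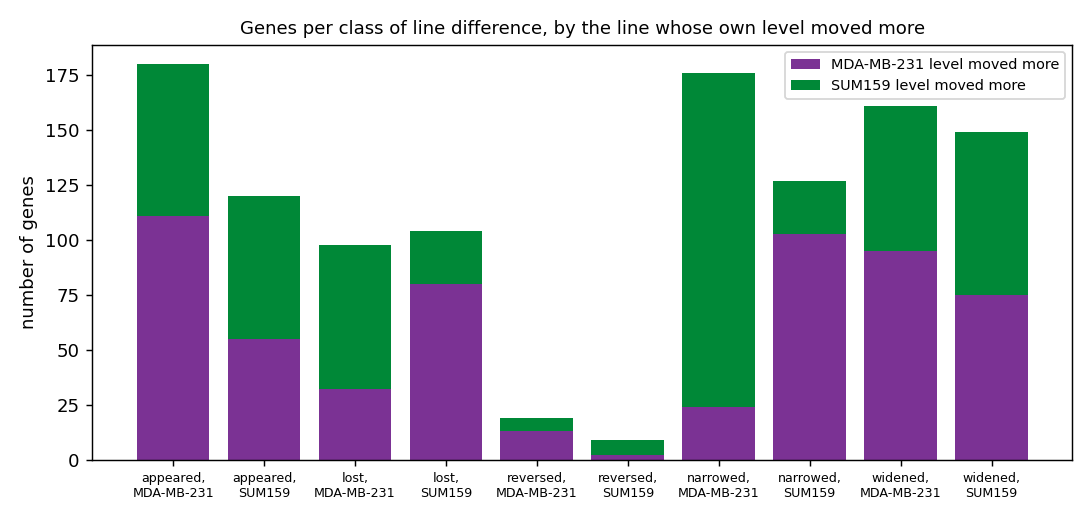
Bars count the genes of each class by the line that was higher (in DMSO for lost and narrowed, under YES1i otherwise), split by the line whose own level moved more between DMSO and YES1i. The SUM159 part fills most of the narrowed bar of MDA-MB-231 (152 of 176), and the MDA-MB-231 part most of that of SUM159 (103 of 127).

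The enzymes of cholesterol synthesis changed sides between the states. Of 20 tested enzymes of the pathway, 19 were higher in MDA-MB-231 under YES1i and none in SUM159, against 41% and 38.5% of all genes. In DMSO 2 were higher in MDA-MB-231 and 14 in SUM159. The change was called toward MDA-MB-231 in the same 19 (19.1% of all genes), and under RLE and upper quartile scaling these counts were again 19 and 0. The median line difference of the list was 2.19 under YES1i and -0.45 in DMSO on the log2 scale, beside 0.02 and -0.02 for all tested genes. PMVK, which phosphorylates phosphomevalonate, was the exception, at 28.8 ± 3.86 and 28.6 ± 4.00 CPM. Earlier results of these data were known when the list was chosen, so it is no independent evidence of this direction.

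HMGCS1 (ENSG00000112972, chromosome 5, 43289395 to 43313512 on hg38) makes HMG-CoA, the precursor of mevalonate. Its 4 YES1i libraries held 306, 345, 325 and 342 CPM in MDA-MB-231 and 41.2, 39.0, 37.9 and 41.4 CPM in SUM159. In DMSO they held 41.5, 37.2, 40.7 and 37.4 CPM in MDA-MB-231 and 367, 300.1, 341 and 344 CPM in SUM159. The lines did not overlap in either state, and they exchanged places. The log2 line difference went from -3.11 to 3.04, a change of 6.15 (SE 0.09, edgeR adjusted p = 1.56e-28).

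MSMO1, a C4-methylsterol oxidase of the late pathway, reversed in the same way. It held 527, 592, 508 and 552 CPM in MDA-MB-231 and 46.5, 52.4, 52.1 and 56.6 CPM in SUM159 under YES1i, and 73.8, 65.4, 68.3 and 66.4 CPM in MDA-MB-231 and 170.1, 132, 139 and 148 CPM in SUM159 in DMSO. The change of its log2 line difference was 4.50 (SE 0.10, edgeR adjusted p = 1.9e-22). FDFT1, which joins farnesyl units into squalene, went from a line difference of -1.41 to 1.93 (log2), and MVD, the decarboxylase of the mevalonate arm, from -1.49 to 1.68. FDFT1 and MVD were named after their values were seen.

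For 10 of the 20 enzymes the lines were within 0.5 log2 units in DMSO and at least 2-fold apart under YES1i, beside 1.7% of all tested genes. IDI1, which isomerises isopentenyl diphosphate, had the largest line difference of the list under YES1i. It held 266, 294, 278 and 295 CPM in MDA-MB-231 and 22.7, 25.2, 26.4 and 25.0 CPM in SUM159 under YES1i, and 74.1, 74.2, 75.9 and 74.9 CPM in MDA-MB-231 and 101, 96.1, 95.6 and 91.0 CPM in SUM159 in DMSO. The SUM159 libraries were thus above those of MDA-MB-231 in DMSO and below all of them under YES1i, with a log2 line difference of 3.51 (SE 0.06, edgeR adjusted p = 4.84e-29). TM7SF2, a sterol reductase, went from -0.11 to 2.99 and ACAT2, an acetyl-CoA acetyltransferase, from 0.00 to 3.05 on the log2 scale.

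SQLE, the squalene epoxidase, lost its difference. In DMSO it held 22.4, 22.6, 23.3 and 22.7 CPM in MDA-MB-231 and 187, 184, 175 and 176 CPM in SUM159, a log2 line difference of -2.99. Under YES1i it held 92.2, 92.9, 102 and 95.1 CPM in MDA-MB-231 and 75.1, 80.0, 81.0 and 82.5 CPM in SUM159. The levels had come to within 1.20-fold, with MDA-MB-231 now the higher (log2 line difference 0.26, SE 0.05, edgeR adjusted p = 2.86e-05).

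**Figure D3:**
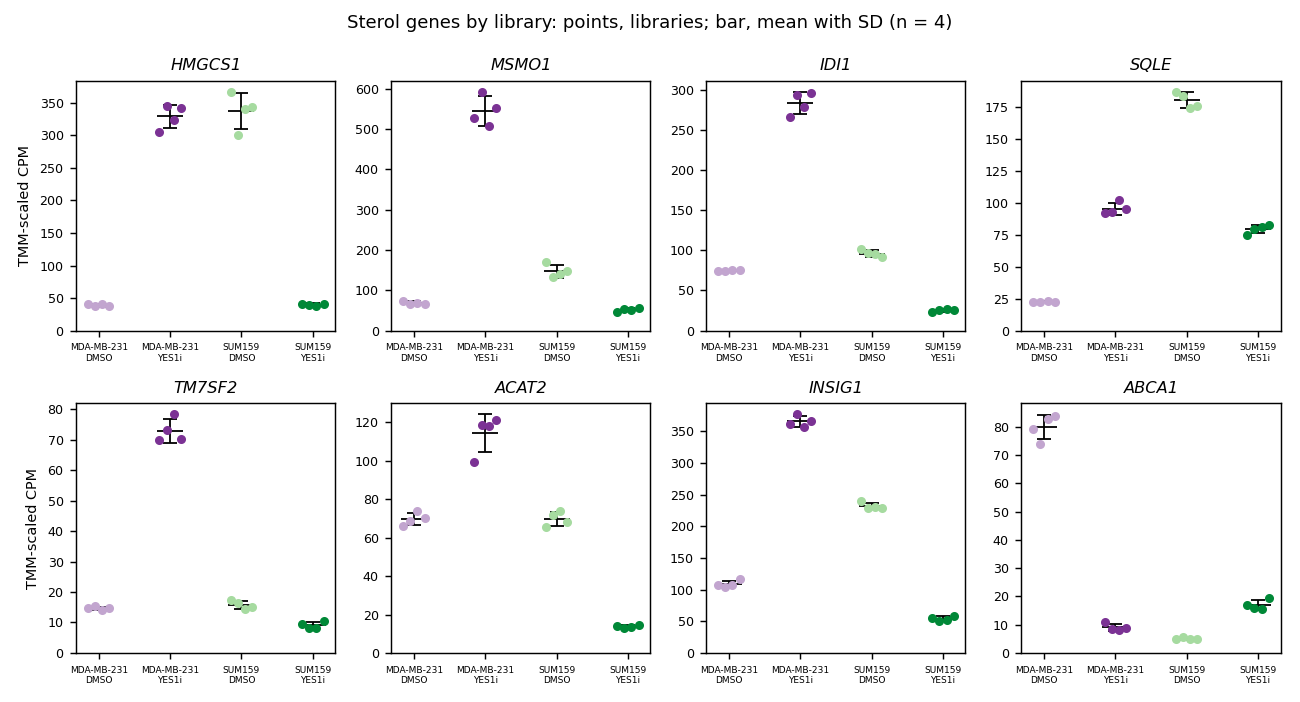
TMM-scaled CPM of 8 genes of sterol synthesis, control and export in each library (points), with the mean and SD of each group of 4 (bars). HMGCS1, MSMO1, IDI1 and INSIG1 are higher in SUM159 in DMSO and higher in MDA-MB-231 under YES1i, while ABCA1 goes the other way.

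Control genes followed in part. Of 11 tested genes of SREBP control and lipoprotein uptake, 8 were higher in MDA-MB-231 under YES1i and 1 in SUM159 (beside 41% and 38.5% of all genes), with 8 changes toward MDA-MB-231 and 1 toward SUM159 (19.1% and 12.1% of all genes). INSIG1, which retains SREBP in the endoplasmic reticulum and is itself an SREBP target, reversed from -1.09 to 2.76. The difference of SREBF2, the gene of the main factor of cholesterol synthesis, was lost by the size rule, from -1.41 to -0.15. MYLIP, a ubiquitin ligase and LXR target, moved toward SUM159 by -1.11 and was named after its values were seen.

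ABCA1, the cholesterol exporter driven by LXR, moved opposite to the synthesis enzymes. It held 79.3, 74.0, 82.5 and 83.7 CPM in MDA-MB-231 and 4.78, 5.49, 4.82 and 4.76 CPM in SUM159 in DMSO. Under YES1i it held 10.9, 8.46, 8.16 and 8.95 CPM in MDA-MB-231 and 16.96, 15.8, 15.6 and 19.3 CPM in SUM159. The MDA-MB-231 libraries were above those of SUM159 in DMSO and below them under YES1i, with a change of -4.91 on the log2 scale (SE 0.13, edgeR adjusted p = 3.68e-22). ABCG1, another exporter, had a mean of 0.342 ± 0.187 CPM in MDA-MB-231 and 15.7 ± 1.97 CPM in SUM159 under YES1i, and its log2 line difference widened from -1.88 to -5.53. Of the 7 tested genes of the LXR list 3 were higher in MDA-MB-231 and 4 in SUM159 under YES1i, beside 41% and 38.5% of all genes. ABCA1 and ABCG1 were its 2 changes toward SUM159, and 2 other members moved toward MDA-MB-231 (12.1% and 19.1% of all genes).

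Fatty acid genes moved with the sterol genes. Of 15 tested, 14 were higher in MDA-MB-231 under YES1i (41% of all genes), against 5 in DMSO. The change was called toward MDA-MB-231 in 12 and toward SUM159 in none, beside 19.1% and 12.1% of all genes. FASN, the fatty acid synthase, reversed from -1.36 to 1.09 on the log2 scale. SCD, the stearoyl-CoA desaturase, held 2005, 2082, 1961 and 2000 CPM in MDA-MB-231 and 435, 436, 452 and 449.6 CPM in SUM159 under YES1i. Every MDA-MB-231 library was above every one of SUM159, at a log2 line difference of 2.18 against -0.60 in DMSO. ACSS2, which makes acetyl-CoA from acetate, went from -0.03 to 2.97, and FADS2, the delta-6 desaturase, widened from 4.00 to 5.91. ME1, the cytosolic malic enzyme, was the 1 member higher in SUM159. FASN and SCD were named after their values were seen.

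The SREBP site was searched as TCACNCCAC on both strands of the 250 bases upstream of the RefSeq start (GRCh38.p14). It was present in 0 of 15 sterol synthesis promoters and in 1 of 9 promoters of the control list, beside 0.875% of 27305 promoters. That 1 was SREBF2, at chr22:41832952-41833000 on the plus strand. The sequence is shown since the gene encodes the factor of the pathway, with the matched letters in capitals:
SREBF2: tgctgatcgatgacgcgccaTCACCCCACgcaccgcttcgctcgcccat
No match says only that these letters are not in that window.

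Inflammatory genes moved in the same direction. Of 17 tested CXC chemokines and inflammatory cytokines, 10 were higher in MDA-MB-231 under YES1i and 5 in SUM159, against 8 and 7 in DMSO, and the change was called toward MDA-MB-231 in 9 and toward SUM159 in 1. All tested genes gave 41% and 38.5% higher and 19.1% and 12.1% moved. The median line difference was 1.73 under YES1i and -0.18 in DMSO (log2), but the former moved by over 1.5 times without any 1 of 7 libraries. It was 0.90 and 0.93 without SUM159 YES1i replicates 3 and 1, 0.95 without MDA-MB-231 YES1i replicate 2, and 1.07 without MDA-MB-231 DMSO replicate 3 or SUM159 DMSO replicate 1, 2 or 4. With no low-count filter it was 0.87. All 16 NF-kB factors and feedback inhibitors were called, 11 higher in MDA-MB-231 and 5 in SUM159, and 13 moved toward MDA-MB-231 with none toward SUM159, also under RLE and upper quartile scaling.

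CXCL8 (ENSG00000169429, chromosome 4, 73740506 to 73743716 on hg38) encodes interleukin 8, a neutrophil attractant. In DMSO its libraries held 5.81, 5.39, 4.71 and 6.25 CPM in MDA-MB-231 and 245, 241, 201 and 199.7 CPM in SUM159, at a log2 line difference of -5.32. Under YES1i they held 5.79, 6.27, 4.85 and 5.80 CPM in MDA-MB-231 and 3.81, 4.97, 4.09 and 4.76 CPM in SUM159. The SUM159 mean went from 222 ± 24.9 to 4.41 ± 0.548 CPM and that of MDA-MB-231 from 5.54 ± 0.655 to 5.68 ± 0.596 CPM. The change was 5.66 (SE 0.16, edgeR adjusted p = 3.64e-21). The remaining difference of 0.34 was called in edgeR (adjusted p = 0.0145), but not with upper quartile scaling (edgeR adjusted p = 0.0983), by limma-voom (adjusted p = 0.102) or in a fit of the YES1i libraries alone (edgeR adjusted p = 0.088).

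Other members narrowed from the SUM159 side. CXCL2, a related chemokine, held 2.28, 2.12, 1.57 and 3.10 CPM in MDA-MB-231 and 38.0, 38.0, 35.9 and 32.6 CPM in SUM159 in DMSO. Under YES1i it held 2.64, 2.74, 2.59 and 2.45 CPM in MDA-MB-231 and 5.59, 5.62, 4.75 and 5.88 CPM in SUM159, still without overlap, at -1.07 against -3.98 (log2). CXCL3 went from -4.44 to -2.65, IL1A, interleukin 1 alpha, from -6.01 to -4.02, and TNFAIP3, the ubiquitin-editing brake on NF-kB, from -3.17 to -1.82. CXCL1 was low in all groups, with means of 1.57 ± 0.337 and 1.82 ± 0.565 CPM in DMSO and 2.00 ± 0.358 and 0.0487 ± 0.0659 CPM under YES1i, and its difference appeared at 5.16. IL1B, interleukin 1 beta, was lost from the other side: MDA-MB-231 went from a mean of 0.525 ± 0.381 to 4.09 ± 0.254 CPM and SUM159 from 7.04 ± 0.919 to 5.54 ± 1.08 CPM, a change of 3.26 (edgeR adjusted p = 3.56e-09).

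Other members moved away from SUM159. CSF1, the macrophage growth factor, held 946, 915, 931 and 909.7 CPM in MDA-MB-231 and 169.9, 148, 158 and 157 CPM in SUM159 under YES1i, and 282, 272, 285 and 295 CPM in MDA-MB-231 and 169, 195, 192 and 164 CPM in SUM159 in DMSO. Its log2 line difference widened from 0.66 to 2.55 (change 1.89, SE 0.08, edgeR adjusted p = 1.8e-17). LIF, a cytokine of the interleukin 6 family, widened from 2.55 to 4.33, and TRAF1, an adaptor of TNF receptors, from 1.09 to 2.91. ICAM1, an adhesion molecule for leukocytes, appeared at 1.23 from -0.24. IL11, another cytokine of that family, was the 1 member that moved toward SUM159, from 5.77 to 3.90, with MDA-MB-231 going from 80.2 ± 4.79 to 13.8 ± 2.05 CPM. TNFSF10, the death ligand TRAIL, was at 0 counts in SUM159 in both states and at 31.9 ± 3.30 CPM in MDA-MB-231 under YES1i. Of the genes in this and the preceding paragraph, only CXCL8, IL1B, TNFSF10 and TRAF1 were named by rule, and the others after their values were seen.

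HIF1A, the oxygen-regulated transcription factor, was also lost from the SUM159 side. It held 400.2, 379.9, 392 and 408 CPM in MDA-MB-231 and 1225, 1191, 1197 and 1182 CPM in SUM159 in DMSO, and 564, 601, 528 and 575 CPM in MDA-MB-231 and 569, 725, 659.7 and 621 CPM in SUM159 under YES1i. The ranges were far apart in DMSO and overlapped under YES1i. The log2 line difference went from -1.60 to -0.18 (change 1.42, SE 0.08, edgeR adjusted p = 3.31e-14). HIF1A was named after its values were seen. The glycolysis and hypoxia list of 30 genes moved the other way on balance. It had 7 changes toward MDA-MB-231 and 13 toward SUM159, beside 19.1% and 12.1% of all genes.

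The kB motif, spelled GGGA, any 1 base and TTTCC, or GGAATTTCC, the binding sequence of NF-kB dimers, was searched on both strands of the same 250 bases. It was present in 5 of 13 promoters of the chemokine list, beside 0.817% of 27305 promoters. In CXCL1, CXCL2 and CXCL3 both spellings match at one place. The 5 are shown since 3 of these genes lost or narrowed their SUM159 excess, with the matched letters in capitals, 5′ to 3′ on the gene's strand:
CXCL1: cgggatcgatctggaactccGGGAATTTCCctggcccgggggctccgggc
CXCL2: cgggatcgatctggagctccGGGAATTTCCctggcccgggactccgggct
CXCL3: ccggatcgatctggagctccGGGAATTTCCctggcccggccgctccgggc
CXCL8: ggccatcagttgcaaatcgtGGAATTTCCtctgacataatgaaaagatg
IL6: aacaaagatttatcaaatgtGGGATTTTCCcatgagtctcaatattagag
They lie at chr4:73869294-73869343 (plus strand), chr4:74099244-74099293 (minus), chr4:74038739-74038788 (minus), chr4:73740458-73740506 (plus) and chr7:22727107-22727156 (plus). A match describes letters and not binding. IL6, interleukin 6, carries the letters and kept its line difference, at 2.36 in DMSO and 2.69 under YES1i.

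**Figure D4:**
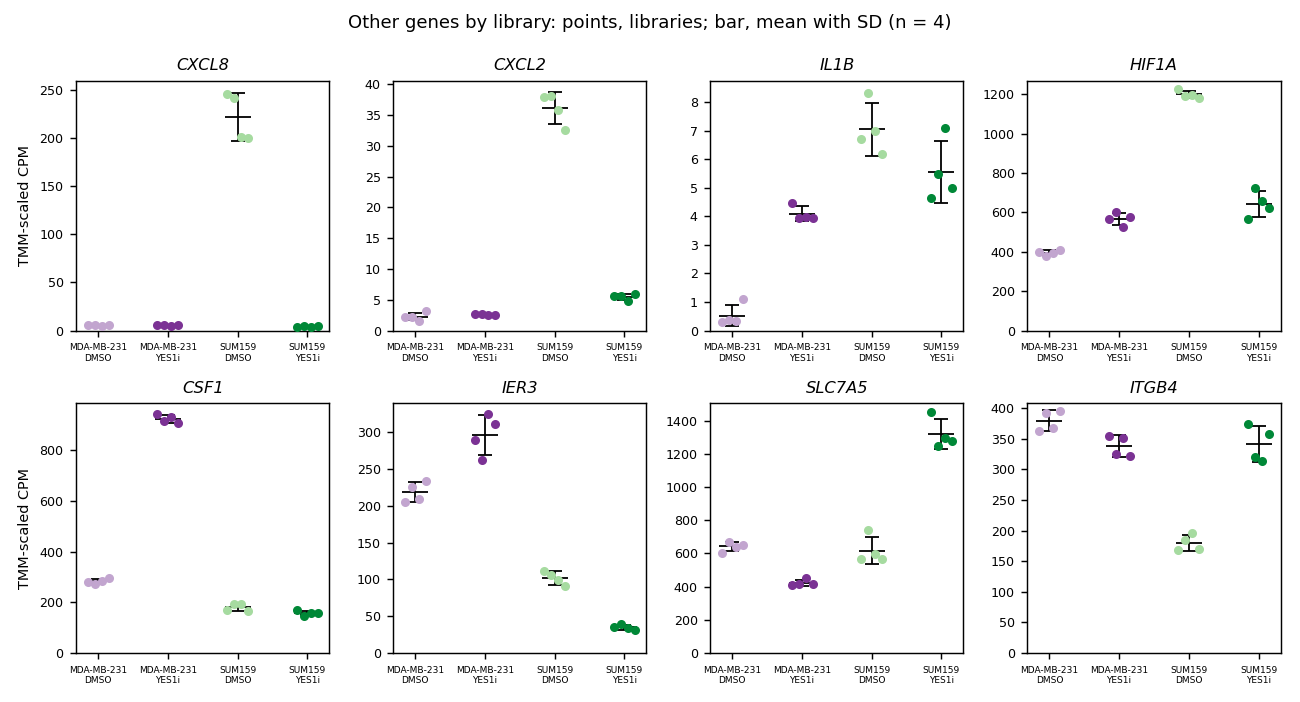
TMM-scaled CPM of 8 genes in each library (points), with the mean and SD of each group of 4 (bars). CXCL8, CXCL2 and HIF1A come down in SUM159 toward MDA-MB-231, CSF1 and IER3 move apart, SLC7A5 separates upward in SUM159, and ITGB4 meets.

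The difference of SLC7A5 appeared with SUM159 higher. SLC7A5 (ENSG00000103257, chromosome 16, 87830023 to 87869488 on hg38), the large neutral amino acid carrier, held 604, 671, 641 and 653 CPM in MDA-MB-231 and 566, 741, 597 and 567 CPM in SUM159 in DMSO. Under YES1i it held 410.1, 416, 450.2 and 417 CPM in MDA-MB-231 and 1452, 1249.5, 1298 and 1275 CPM in SUM159. The lines overlapped in DMSO and were far apart under YES1i, at a log2 line difference of -1.64 (SE 0.07, edgeR adjusted p = 1.08e-17). SLC1A4, a neutral amino acid exchanger, held 10.7, 9.19, 9.84 and 10.9 CPM in MDA-MB-231 and 52.0, 42.2, 43.0 and 43.8 CPM in SUM159, at -2.15 against -0.28 in DMSO. SLC3A2, the heavy chain that partners SLC7A5, was at -1.13 under YES1i and -0.42 in DMSO, with a change of -0.70 (edgeR adjusted p = 0.0259). That call ended without any 1 of 4 libraries, replicates 1 and 4 of SUM159 in each state (adjusted p = 0.0502 to 0.0547). It also ended with the replicate block (-0.70, edgeR adjusted p = 0.0548).

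Both transporters of that complex belong to the integrated stress response list, in which SUM159 was already the higher line. Of its 24 genes, 21 were higher in SUM159 and 3 in MDA-MB-231 under YES1i (38.5% and 41% of all genes), against 20 and 2 in DMSO. The change was called toward MDA-MB-231 in 6 and toward SUM159 in 8, beside 19.1% and 12.1% of all genes, so the former is near the background. These counts were 5 and 9 with RLE scaling and 4 and 10 with upper quartile scaling. The list median was -1.88 under YES1i and -1.70 in DMSO (log2). The serine pathway enzymes PHGDH and PSAT1 widened, from -5.47 to -7.11 and from -1.57 to -3.18. PSAT1, which makes phosphoserine, held 34.7, 36.3, 38.7 and 42.3 CPM in MDA-MB-231 and 359, 321, 356 and 345 CPM in SUM159 under YES1i, with no overlap. ATF4, the transcription factor of the response, was kept at -1.85 against -1.73. NUPR1, a stress-induced chromatin protein, narrowed from -4.38 to -2.73, with MDA-MB-231 going from 1.09 ± 0.350 to 16.97 ± 2.03 CPM. Of these only STC2, a secreted glycoprotein with the largest difference of the list (-8.12), was named by rule.

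Differences of several other genes appeared with SUM159 higher. PDGFRB, a receptor of platelet-derived growth factor, held 14.2, 11.6, 14.3 and 12.7 CPM in MDA-MB-231 and 51.0, 44.1, 48.5 and 46.4 CPM in SUM159 under YES1i, at -1.84 against -0.34 in DMSO. TAGLN, an actin-binding protein of contractile cells, held 8.77, 8.88, 10.1 and 8.80 CPM in MDA-MB-231 and 43.6, 31.6, 31.3 and 37.5 CPM in SUM159, with a mean of 8.89 ± 0.361 and 9.70 ± 0.507 CPM in DMSO. SERPINH1, the collagen chaperone, was at -1.09 against -0.24, and TNS1, a focal adhesion protein, at -1.61 against -0.16. SGK1, a kinase downstream of PI3 kinase, crossed from 0.29 to -1.91. At low levels, HR, a corepressor of nuclear receptors, was at 0.613 ± 0.249 and 6.02 ± 1.20 CPM under YES1i, DCLK1, a microtubule-associated kinase, at 1.39 ± 0.293 and 8.25 ± 0.466 CPM, and PLIN4, a lipid droplet coat protein, at 2.29 ± 0.651 and 10.9 ± 1.03 CPM. Their changes were -3.25, -2.25 and -2.02 (edgeR adjusted p = 2.34e-07, 6.82e-08 and 2e-05). TAGLN, SERPINH1 and SGK1 were named after their values were seen.

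Differences with MDA-MB-231 higher that were lost came mostly from the SUM159 side, in 66 of 98. ITGB4 (ENSG00000132470, chromosome 17, 75721328 to 75757818 on hg38), the integrin of hemidesmosomes, held 362, 393, 367 and 395 CPM in MDA-MB-231 and 168, 185, 197 and 171 CPM in SUM159 in DMSO. Under YES1i it held 354, 325, 352 and 321 CPM in MDA-MB-231 and 374, 320.1, 314 and 357 CPM in SUM159. Its ranges were apart in DMSO and overlapped under YES1i (change -1.09, SE 0.08, edgeR adjusted p = 3.11e-11). PPL, the cytolinker periplakin, went from 2.84 to 0.49 on the log2 scale, and PEA15, an ERK-binding adaptor, from 1.09 to -0.38. PPME1, a methylesterase of protein phosphatase 2A, was lost from the MDA-MB-231 side. It held 256, 249, 241 and 245 CPM in MDA-MB-231 and 70.3, 63.7, 61.5 and 66.1 CPM in SUM159 in DMSO, and 71.1, 81.4, 82.7 and 81.2 CPM in MDA-MB-231 and 61.1, 60.8, 59.2 and 51.7 CPM in SUM159 under YES1i. SAA2, an acute phase protein, and SH3D21, an SH3 domain protein, were lost at low levels, with means of 6.71 ± 0.596 and 1.61 ± 0.363 CPM in DMSO for SAA2 and 18.6 ± 1.18 and 4.94 ± 0.368 CPM for SH3D21. Their changes were -2.44 and -2.15 (edgeR adjusted p = 7.67e-08 and 1.21e-10). ITGB4 and PEA15 were named after their values were seen.

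The targets of YAP, TAZ and TEAD moved toward SUM159. In DMSO 15 of 26 were higher in MDA-MB-231 and 6 in SUM159, and under YES1i 10 and 11. The change was called toward SUM159 in 18 and toward MDA-MB-231 in 1, beside 12.1% and 19.1% of all genes, and RLE and upper quartile scaling gave 21 and 1. The difference was lost in 4 of them. TEAD1, the DNA-binding partner of YAP, held 448, 412, 444 and 438 CPM in MDA-MB-231 and 196, 199, 191 and 205 CPM in SUM159 in DMSO, and 306, 289, 264 and 256 CPM in MDA-MB-231 and 208, 244, 231 and 217 CPM in SUM159 under YES1i. MDA-MB-231 was the higher line in both states, by 1.14 and then 0.31 (log2). LATS2, the kinase that restrains YAP, went from 1.08 to 0.47, and AXL, a receptor tyrosine kinase, from 1.11 to 0.42. CYR61, a secreted matricellular target, was near equal in DMSO (-0.11) and higher in SUM159 under YES1i (-0.91). FOXF2, a forkhead factor, had the largest called change among those at 5 CPM or more, -0.84. ANKRD1, a muscle and stress protein, kept the largest line difference of the list, 4.66 against 4.93. TEAD1, LATS2, AXL and CYR61 were named after their values were seen.

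Genes of ERK output moved the other way. Of 25, 20 were higher in MDA-MB-231 and 3 in SUM159 under YES1i, against 18 and 7 in DMSO, with 14 changes toward MDA-MB-231 and 2 toward SUM159, beside 19.1% and 12.1% of all genes. The median was 1.17 under YES1i and 0.55 in DMSO (log2). IER3, an immediate early gene, held 205, 226, 209 and 233 CPM in MDA-MB-231 and 112, 106, 98.6 and 90.5 CPM in SUM159 in DMSO, and 289, 262, 324 and 311 CPM in MDA-MB-231 and 34.6, 39.1, 33.7 and 31.2 CPM in SUM159 under YES1i. Its line difference widened from 1.10 to 3.10 (change 2.00, SE 0.10, edgeR adjusted p = 8.97e-14), and no libraries of the lines overlapped. DUSP6, the ERK phosphatase, widened from 5.96 to 8.14, with SUM159 at 2.33 ± 0.578 and 0.734 ± 0.208 CPM. The feedback inhibitors SPRY2 and SPRY4 appeared, at 1.27 and 1.73 from 0.20 and 0.33. DUSP5, a nuclear ERK phosphatase, crossed from -0.61 to 1.35, and ETV1, an ETS factor, widened from 1.01 to 2.20. EGR1, an immediate early factor, reversed at low levels, from -1.36 to 1.08, with means of 4.25 ± 0.920 and 2.04 ± 0.188 CPM under YES1i. Only DUSP6 and EGR1 of these were named by rule.

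Of 14 tested EGFR family members and ligands, 8 were higher in MDA-MB-231 and 3 in SUM159 under YES1i, beside 41% and 38.5% of all genes. EGFR itself was near equal in DMSO (-0.10) and higher in SUM159 under YES1i (-0.78), where it held 358, 353, 332 and 311 CPM in MDA-MB-231 and 564, 594, 583 and 584 CPM in SUM159. AREG, the ligand amphiregulin, held 55.2, 51.0, 58.6 and 56.6 CPM in MDA-MB-231 and 2.32, 2.42, 2.93 and 3.33 CPM in SUM159, and its line difference widened from 1.47 to 4.32. EREG, epiregulin, narrowed from -3.60 to -2.58 as SUM159 went from 159 ± 8.03 to 55.4 ± 3.16 CPM, and was named after its values were seen. TGFA kept its difference, at 4.71 against 4.07.

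Lysosomal genes were higher in MDA-MB-231 in both states, and more so under YES1i. Of 32 genes of autophagy and lysosomes 28 were higher in MDA-MB-231 and 2 in SUM159, against 19 and 8 in DMSO, with 24 changes toward MDA-MB-231 and 4 toward SUM159 (18 and 6 with upper quartile scaling), beside 19.1% and 12.1% of all genes. Of 21 subunits of the V-ATPase, the proton pump of lysosomes, 17 were higher in MDA-MB-231 and 1 in SUM159, against 12 and 3 in DMSO, and 16 moved toward MDA-MB-231 and 1 toward SUM159. NEU1, the lysosomal sialidase, held 86.6, 83.0, 82.1 and 86.8 CPM in MDA-MB-231 and 28.9, 30.0, 28.6 and 25.6 CPM in SUM159 in DMSO, and 301, 293, 312 and 317 CPM in MDA-MB-231 and 45.4, 39.9, 42.2 and 47.6 CPM in SUM159 under YES1i. The log2 line difference widened from 1.58 to 2.80 (change 1.22, SE 0.08, edgeR adjusted p = 1.22e-12). ATP6V0D2, a subunit best known from osteoclasts, held 11.01, 11.1, 11.8 and 11.003 CPM in MDA-MB-231 and 0.179, 0.0929, 0.111 and 0.389 CPM in SUM159, with 0.306 ± 0.0461 and 0.194 ± 0.264 CPM in DMSO. SQSTM1, the autophagy receptor p62, crossed from -0.51 to 0.76. GPNMB, a lysosomal glycoprotein, went the other way, with means of 0.821 ± 0.367 and 0.657 ± 0.179 CPM in DMSO and 8.48 ± 0.545 and 16.9 ± 1.77 CPM under YES1i, a change of -1.24 (edgeR adjusted p = 0.00276). NEU1 and GPNMB were named after their values were seen.

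The CLEAR letters TCACGTGA, to which TFEB-family factors bind, were present in 3 of 22 promoters of the lysosome list and 2 of 15 of the V-ATPase list, beside 0.890% of all promoters. All 5 are shown, with the match in capitals:
CTSA: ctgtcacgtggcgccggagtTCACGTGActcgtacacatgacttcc
LAMP1: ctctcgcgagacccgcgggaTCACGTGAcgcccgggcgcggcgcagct
MCOLN1: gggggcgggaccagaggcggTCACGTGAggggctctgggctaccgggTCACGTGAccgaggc
ATP6V0D1: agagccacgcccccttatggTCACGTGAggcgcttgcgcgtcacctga
ATP6V1G1: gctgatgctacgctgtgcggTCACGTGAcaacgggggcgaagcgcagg
They lie at chr20:45891289-45891334 (plus strand), chr13:113297190-113297237 (plus), chr19:7522562-7522623 (plus), chr16:67481190-67481237 (minus) and chr9:114587690-114587737 (plus). The change of the line difference was 0.97 for the protease CTSA, 0.53 for the membrane protein LAMP1, 0.43 for the calcium channel MCOLN1 (edgeR adjusted p = 0.0227), 0.91 for the pump subunit ATP6V0D1 and, with no call, 0.08 for ATP6V1G1 (log2). The call of MCOLN1 ended with upper quartile scaling (0.32, edgeR adjusted p = 0.0905). It also ended without any 1 of 5 libraries (edgeR adjusted p = 0.0509 to 0.104).

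The aryl hydrocarbon receptor AHR appeared as a difference. It held 88.1, 84.1, 82.7 and 86.6 CPM in MDA-MB-231 and 75.0, 100.4, 90.0 and 89.2 CPM in SUM159 in DMSO, where the lines overlapped, and 153, 151, 114 and 123 CPM in MDA-MB-231 and 69.8, 53.6, 62.6 and 68.5 CPM in SUM159 under YES1i, where they did not. Its log2 line difference was 1.09 (SE 0.10, edgeR adjusted p = 3.14e-08), and it was named after its values were seen. Of 8 tested genes of the receptor and its targets, 5 moved toward MDA-MB-231 and none toward SUM159, beside 19.1% and 12.1% of all genes. CYP1B1, a cytochrome P450 and target of the receptor, widened from 5.03 to 6.62, with 779, 808, 740.4 and 777 CPM in MDA-MB-231 and 7.38, 7.76, 9.95 and 6.71 CPM in SUM159 under YES1i.

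Matrix and secreted genes kept large differences, and several moved. FN1, fibronectin, held 614, 576, 642 and 627 CPM in MDA-MB-231 and 5977, 5434, 5902 and 5333 CPM in SUM159 in DMSO, and 2803, 2642, 2542 and 2516 CPM in MDA-MB-231 and 7316, 7203, 7398 and 7031 CPM in SUM159 under YES1i. SUM159 was higher throughout, by -3.20 and then -1.46 (log2 line difference, change 1.74, SE 0.07, edgeR adjusted p = 2.94e-17). TNC, tenascin C, widened from -3.53 to -4.87, with MDA-MB-231 going from 66.4 ± 1.52 to 20.6 ± 1.72 CPM. TIMP3, an inhibitor of matrix proteases, narrowed from 3.85 to 2.68 as SUM159 went from 47.7 ± 0.808 to 176 ± 5.46 CPM. SERPINE2, a protease inhibitor, narrowed likewise, from 3.69 to 1.27. Of 37 tested collagens and matrix genes 22 were higher in SUM159 and 12 in MDA-MB-231, with 15 changes toward SUM159 and 7 toward MDA-MB-231, beside 12.1% and 19.1% of all genes, so the latter is near the background. TNC and TIMP3 were named after their values were seen.

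Of 14 tested binding proteins, receptors and partners of insulin-like growth factors 7 moved toward SUM159 and 2 toward MDA-MB-231 (1 with upper quartile scaling), beside 12.1% and 19.1% of all genes. The 7 were the binding proteins IGFBP3, IGFBP4, IGFBP5 and IGFBP6, the insulin receptor INSR, the protease PAPPA and its inhibitor STC1. IGFBP3 held 72.2, 71.1, 73.2 and 77.1 CPM in MDA-MB-231 and 3.92, 3.29, 3.72 and 3.29 CPM in SUM159 in DMSO, and 47.1, 51.1, 52.4 and 52.0 CPM in MDA-MB-231 and 20.3, 19.9, 20.4 and 17.4 CPM in SUM159 under YES1i. MDA-MB-231 was the higher line in both states, by 4.34 and then 1.38 on the log2 scale. IGFBP5 held 0.172, 0.122, 0.384 and 0 CPM in MDA-MB-231 and 88.9, 89.6, 100 and 87.7 CPM in SUM159, and its difference widened from -5.66 to -8.99. IGFBP7, a relative found in the matrix, moved the other way, from 1.58 to 2.75. Of the genes of this list named here, all but IGFBP5 were named after their values were seen. DKK1, a secreted Wnt inhibitor, and SFN, the 14-3-3 sigma protein, both moved toward MDA-MB-231 from the SUM159 side: DKK1 went from 43.5 ± 2.99 to 9.47 ± 1.02 CPM and SFN from 93.0 ± 6.10 to 23.8 ± 4.09 CPM in SUM159, with changes of 2.14 and 2.04 (log2). Both were chosen after their values were seen.

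Many narrowed and widened differences rested on a line that was almost silent. The 4 narrowed differences that were largest in DMSO with MDA-MB-231 higher were CALB2, SDK1, PLEKHS1 and CLIC5. CALB2, the calcium-binding protein calretinin, had 0 counts over the 4 SUM159 libraries in DMSO and 7 under YES1i, beside 2848 in MDA-MB-231. Over the 4 SUM159 libraries under YES1i, CLIC5, a chloride channel protein, had 6 counts, SDK1, a synaptic adhesion protein, 4 and PLEKHS1 3, all from 0 in DMSO. On the SUM159 side they were ALDH1A1, SULT1B1, CD109 and TBX2. For CD109, a surface protein of the alpha-2-macroglobulin family, MDA-MB-231 went from 0.149 ± 0.0645 to 1.00 ± 0.198 CPM. SUM159 went from 582 ± 29.1 to 984 ± 37.4 CPM (SD, n = 4), and the line difference changed by 1.95 (edgeR adjusted p = 8.47e-06). The MDA-MB-231 level of CD109 in DMSO was near the floor of 3 counts, 0.137 to 0.163 CPM in those libraries, so the size of this change is uncertain. ALDH1A1, a retinaldehyde dehydrogenase, went from 156 ± 5.07 to 44.2 ± 3.32 CPM in SUM159, with 1 and 5 counts in MDA-MB-231. For ALDH1A1 the call of the change ended without MDA-MB-231 YES1i replicate 4 (0.23, edgeR adjusted p = 0.721, against 3.81). For SULT1B1, a sulfotransferase, it ended without MDA-MB-231 YES1i replicate 3 (3.89, adjusted p = 0.139, against 5.69). For SDK1 and for PLEKHS1 it ended without any 1 of 13 libraries, with adjusted p up to 0.316 and 1. SLC2A5, the fructose transporter, reversed at low levels: MDA-MB-231 went from 0.0614 ± 0.0594 to 5.32 ± 0.627 CPM and SUM159 from 1.79 ± 0.5803 to 2.29 ± 0.673 CPM, a change of 5.93 (edgeR adjusted p = 4.16e-10).

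The widened differences that were largest under YES1i were of 2 kinds. On the SUM159 side, SPARC, a collagen-binding matrix protein, had means of 0.564 ± 0.0454 CPM in MDA-MB-231 and 1277 ± 65.7 CPM in SUM159, and its difference went from -9.62 to -11.13. MMP2, a gelatinase, went from -9.60 to -11.06, with SUM159 at 270.1 ± 9.88 CPM in DMSO and 499 ± 21.5 CPM under YES1i. ST6GALNAC3, a sialyltransferase, and UNC5C, a netrin receptor, had 0 counts in MDA-MB-231 under YES1i, and the call of their change ended without any 1 of 9 and of 6 libraries (adjusted p up to 0.125 and 0.189). On the MDA-MB-231 side, ATP2B2, a calcium pump, went from 5.91 ± 0.509 to 25.3 ± 0.462 CPM with 2 and 0 counts in SUM159, and SNAP91, a clathrin adaptor, CHRDL1, a BMP antagonist, and MST1R, the receptor RON, were likewise nearly silent in SUM159. The call of the change ended without SUM159 DMSO replicate 1 for SNAP91 (3.44, edgeR adjusted p = 0.169) and MST1R (1.90, adjusted p = 0.105), and without any 1 of 6 and of 12 libraries for ATP2B2 and CHRDL1 (adjusted p up to 0.158 and 1).

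The largest differences under YES1i were on or off. KRT19, a simple epithelial keratin, held 423, 426, 503 and 469.6 CPM in MDA-MB-231 and no counts in SUM159, at least 12100-fold higher at a floor of 3 counts over the group. PXDN, a peroxidase of basement membranes, the salivary cystatins CST1 and CST4 and LRRC61 were at least 9220-, 9520-, 8250- and 2150-fold higher in MDA-MB-231. MME, the endopeptidase CD10, held 415, 507, 473 and 445 CPM in SUM159 and no counts in MDA-MB-231, at least 11500-fold higher. KRT75, a hair keratin, the neuronal pentraxins NPTX1 and NPTX2, the bHLH factor TWIST2 and TRIM58 were at least 10700-, 7590-, 4690-, 5930- and 5290-fold higher in SUM159. For none of these 11 was the change called by edgeR, while limma-voom called that of CST4 (2.06, adjusted p = 0.0122).

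Lineage programmes also stayed. All 23 tested HOX genes were called under YES1i, 17 higher in SUM159 and 6 in MDA-MB-231, beside 38.5% and 41% of all genes. The counts of the list were the same in DMSO. Its median under YES1i was -5.52 (log2), or -4.95 with genes at 0 in a line set at their bound. That median depends on which low genes are kept, at -3.44 with no low-count filter, -7.89 with a mean count of 10 or more and -7.57 in the YES1i libraries alone. HOXC10 had no counts in MDA-MB-231 under YES1i and was at least 1500-fold higher in SUM159. The lines used different cadherins: CDH11 held 144 ± 2.99 CPM in MDA-MB-231 and 0.0276 ± 0.0553 CPM in SUM159, while CDH2, N-cadherin, held 0.826 ± 0.339 and 159 ± 11.6 CPM and CDH13 0.305 ± 0.0709 and 477 ± 24.4 CPM. CDH1, E-cadherin, was at 2.15 ± 0.282 CPM in MDA-MB-231 and 0 counts in SUM159. CDH4, retinal cadherin, narrowed from 7.32 to 5.92. VIM, the mesenchymal filament vimentin, was higher in SUM159, at -1.70 against -1.24. The basal factor TP63 was at 61.3 ± 3.54 CPM in SUM159 and 1.21 ± 0.284 CPM in MDA-MB-231. CDH11, CDH13 and TP63 were named after their values were seen.

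Interferon-stimulated genes were higher in MDA-MB-231 in both states. Of 32, 24 were higher in MDA-MB-231 and 4 in SUM159 under YES1i, against 23 and 7 in DMSO, and 16 were kept, with medians of 1.62 and 1.61 (log2). Changes went toward MDA-MB-231 in 12 and toward SUM159 in 4, a split of 8 and 7 with upper quartile scaling, beside 19.1% and 12.1% of all genes. IFIT2, an antiviral RNA-binding protein, had means of 62.1 ± 5.30 and 0.625 ± 0.287 CPM under YES1i. OAS2, the oligoadenylate synthase, widened from 4.23 to 5.92, with 33.6, 37.2, 37.3 and 36.3 CPM in MDA-MB-231 and 0.893, 0.325, 0.608 and 0.606 CPM in SUM159 under YES1i.

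Cytosolic ribosomal protein genes lay on the SUM159 side throughout. All 39 were higher in SUM159 under YES1i (38.5% of all genes), 31 of them at least 2-fold (21.1% of all genes). In DMSO 38 were higher in SUM159, 12 at least 2-fold (19.7% of all genes). The change was called toward SUM159 in 31 and toward MDA-MB-231 in none, beside 12.1% and 19.1% of all genes, and no scaling gave a count toward MDA-MB-231. The median was -1.39 under YES1i and -0.87 in DMSO (log2). RPL3, of the large subunit, held 704, 765, 818 and 819 CPM in MDA-MB-231 and 4069.7, 3512, 3921 and 3928 CPM in SUM159 under YES1i, with no overlap. The counting of reads shared with the pseudogenes of these genes is not given in the sources used here, so their levels are uncertain.

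**Figure D5:**
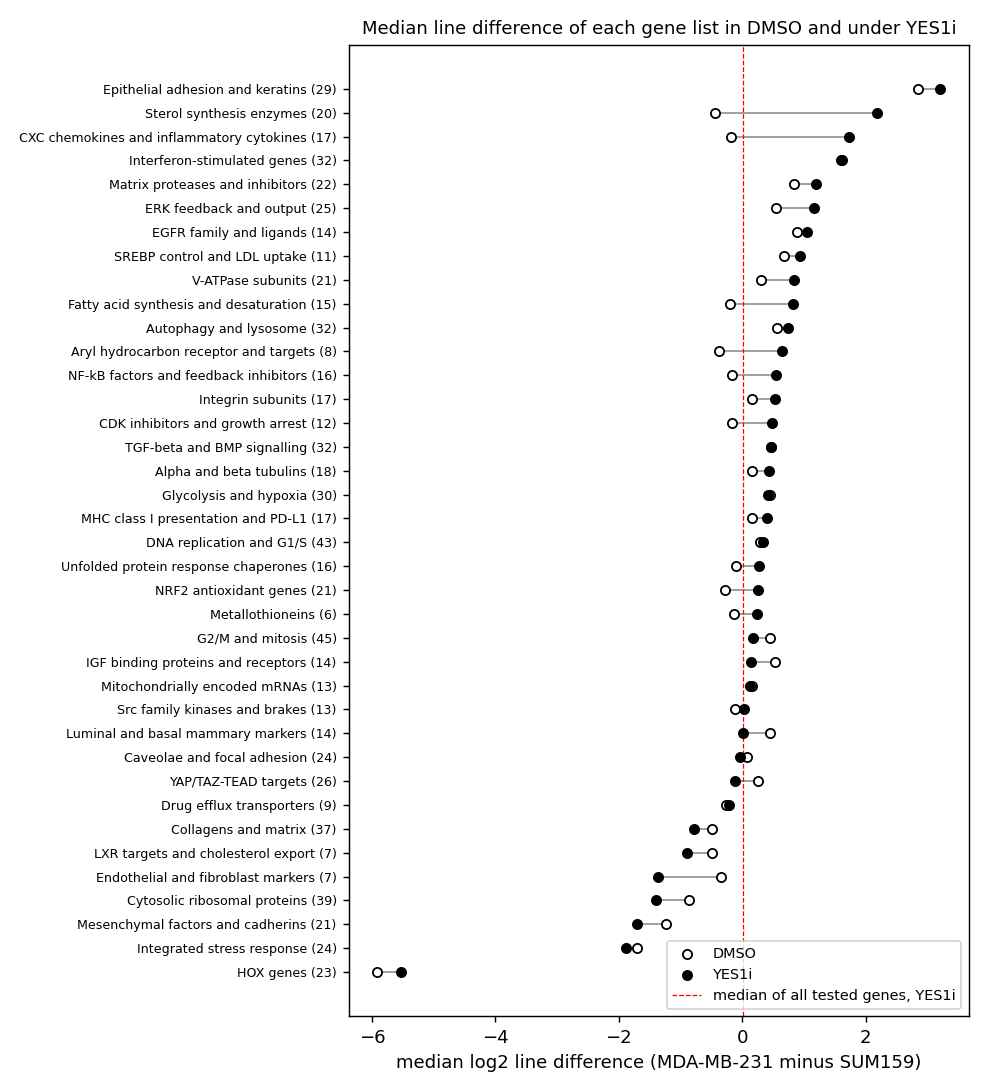
Median log2 line difference of the tested members of each list (number tested in parentheses) in DMSO (open circles) and under YES1i (filled circles), with the median of all tested genes under YES1i dashed. Sterol synthesis moves from -0.45 to 2.19, while HOX genes, interferon-stimulated genes and epithelial genes stay far from the line.

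Most mitotic genes had no large difference between the lines in either state. In the list of 45 mitotic and G2/M genes, 25 were higher in MDA-MB-231 and 11 in SUM159 under YES1i. With upper quartile scaling 17 and 16 were called. The difference was large in 1 and 2 under YES1i, beside 20.5% and 21.1% of all genes, and in 6 and 2 in DMSO, beside 18.9% and 19.7%. The change was toward SUM159 in 23 and toward MDA-MB-231 in 1, beside 12.1% and 19.1% of all genes. These counts were 26 and 1 with RLE scaling and 31 and 1 with upper quartile scaling. The MDA-MB-231 excess in DMSO (32 and 6) thus shrank. CCNB1, the mitotic cyclin, held 108, 124, 135 and 129 CPM in MDA-MB-231 and 106, 92.6, 113 and 101 CPM in SUM159 under YES1i, at 0.27 against 0.19 in DMSO. CENPA, the centromeric histone, moved most, from 0.02 to -0.62. HMMR, a spindle protein, kept the largest difference, -2.02 against -1.63. In the replication list of 43, 24 were higher in MDA-MB-231 and 10 in SUM159, beside 41% and 38.5% of all genes. The difference was large in 9 and 1 of them under YES1i, so the former is near the background, and in 4 and 0 in DMSO. Changes went toward MDA-MB-231 in 8, near the background of 19.1%, and toward SUM159 in 2 (12.1% of all genes). These counts were 4 and 4 with upper quartile scaling. RRM2, of ribonucleotide reductase, had means of 30.6 ± 2.12 and 32.4 ± 5.82 CPM (SD, n = 4) with no difference called. CDKN1A, the inhibitor p21, crossed from -0.21 to 1.00, and CDKN2A had no counts in either line under YES1i.

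The gene of the drug's target did not differ at the threshold. YES1 (ENSG00000176105, chromosome 18, 721588 to 812546 on hg38) held 87.4, 96.3, 90.4 and 99.0 CPM in MDA-MB-231 and 79.9, 94.9, 95.4 and 85.3 CPM in SUM159 under YES1i. The ranges overlapped, with a log2 line difference of 0.07 (SE 0.06, edgeR adjusted p = 0.284) and of -0.12 in DMSO. The change of the YES1 line difference had no call with all libraries. It was called without SUM159 YES1i replicate 2 (0.22, edgeR adjusted p = 0.0312) or replicate 3 (0.23, edgeR adjusted p = 0.0499). SRC was higher in SUM159 (-0.28), LYN went from -0.56 to a difference with no call (0.03), and FRK was low in both lines, at 2.09 ± 0.114 and 1.75 ± 0.418 CPM. FYN was at -0.15, a call that ended without any 1 of 5 YES1i libraries (replicates 1 and 2 of MDA-MB-231, replicates 2, 3 and 4 of SUM159), with adjusted p from 0.0568 to 0.146. PTPN1, a tyrosine phosphatase, was higher in MDA-MB-231 (0.72). CAV1, caveolin 1 and a Src substrate, was near equal in DMSO (-0.04) and higher in SUM159 under YES1i (-0.45).

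The series concerns taxanes, which bind tubulin and are exported by efflux pumps. Of 18 tested tubulins, stathmins and microtubule-associated proteins (the tubulin list in the plot of list medians) 11 were higher in MDA-MB-231 and 5 in SUM159 under YES1i, with 10 changes toward MDA-MB-231 and 1 toward SUM159 (5 and 1 with upper quartile scaling). All genes gave 41% and 38.5% higher and 19.1% and 12.1% moved. ABCB1, the drug efflux pump, had no counts in MDA-MB-231 and was at 2.58 ± 0.707 CPM in SUM159, and the pump ABCC2 was at 2.33 ± 0.730 and 96.6 ± 4.11 CPM. TUBB3, a neuronal beta tubulin, was low in both, at 0.629 ± 0.292 and 1.52 ± 0.312 CPM. TUBA1A, an alpha tubulin, held 267, 266, 286 and 283 CPM in MDA-MB-231 and 107, 100.3, 111 and 88.0 CPM in SUM159 under YES1i, and crossed from -0.86 to 1.44. Tubulins have near-identical copies, and reads shared among them make single values uncertain. ABCC3, another efflux pump, went from -1.34 to -0.47, which the size rule counts as lost. SUM159 was still the higher line under YES1i, without overlap (edgeR adjusted p = 4.72e-09). ABCC3 was named after its values were seen.

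Strand use in counting is not given in the sources used here, and values of genes that overlap another gene with at least 10% of their own count are uncertain. Among those named above these are ABCB1, ACAT2, ACSS2, CENPA, CSF1R, ERBB2, ESR1, FADS2, IFIT2, IGFBP7, ITGB4, LRRC61, MCOLN1, PLIN4, PPME1, SH3D21, SQSTM1, TAGLN, TBX2, TM7SF2, TUBA1A and UNC5C.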

How the data were processed

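RNA of 16 libraries was analysed from a table of read counts per gene that the authors deposited, with 1 column per library and gene names, biotypes and coordinates in it. The counts are not normalized. HISAT2 2.0.5 and featureCounts 1.5.0-p3 are listed, with hg38 as the build and no role or order, per the submitters' processing notes. How strand, overlapping genes and reads with several places were handled is not given in the sources used here. Per the labels' protocols, poly(A) RNA was copied with random hexamers.

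Libraries were grouped by the labelled line and treatment. Of 58735 genes, 17647 passed filterByExpr with the 4 groups (13799 protein-coding) and were tested. All 16 libraries entered 1 quasi-likelihood fit (robust, TMM factors) of edgeR 4.0.16 under R 4.3.3, with limma 3.58.1. The contrasts were MDA-MB-231 minus SUM159 under YES1i, the same in DMSO, and the difference between them. P-values were adjusted per contrast by Benjamini-Hochberg across all 17647 genes, and standard errors were derived from the F statistic. Classes, thresholds and 40 gene lists were set with earlier results of these data known, and no list was given a set test.

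Genes were named by rule: protein-coding, called, at 5 CPM or more in the higher line in the state that is large, and with no overlap between lines in that state. The rule took the 6 largest differences under YES1i in each direction, the 4 largest of each class and direction, the largest difference and change of each list, and 30 fixed genes. Some of the genes so named are not reported here. Of 135 genes so named, 87 overlap another gene and 26 overlap one with at least 10% of their own count. Promoter sequences are those of RefSeq on GRCh38.p14, matched by symbol.

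The steps were tested on simulated counts with 17071 tested genes and 200 changed. For the line difference under YES1i 100%, 99% and 100% of genes changed 1.5-, 2- and 4-fold were recovered, with 4.33% false calls, and for the change of the difference 88%, 97% and 100%, with 2.55% false calls. Far more genes differed in the data, so these shares may not hold there. The alternatives were DESeq2 1.42.0 and limma-voom, scaling by RLE or by the upper quartile, other filters and thresholds, a replicate block, the YES1i libraries alone and leaving out each library.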

Additional observations from a re-analysis of the deposited data

Results flagged for a closer look

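For 20 genes named from the appeared, lost and reversed classes, the responses of the lines to YES1i differed by the change of the line difference (log2). The classes themselves required that change to be called, so these values are a description and not a further test. Toward MDA-MB-231 the changes were 6.15 for HMGCS1, 5.93 for SLC2A5, 5.66 for CXCL8, 4.50 for MSMO1, 3.87 for IDI1, 3.85 for INSIG1, 3.26 for IL1B and 3.25 for SQLE. They were 3.10 for TM7SF2, 3.05 for ACAT2, 3.00 for ACSS2 and 2.46 for ACTBL2, a beta actin relative. Toward SUM159 they were -3.25 for HR, -2.44 for SAA2, -2.35 for PPL, -2.25 for DCLK1, -2.15 for SH3D21, -2.02 for PLIN4, -1.88 for SLC1A4 and -1.48 for PPME1. In HMGCS1 the own changes had opposite signs and nearly the same size, 3.07 in MDA-MB-231 and -3.08 in SUM159.

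In 21 of 344 groups of 4 YES1i libraries of named genes reaching 5 CPM, 1 library lay far from the other 3 by Dixon's 95% criterion, which chance meets in about 1 of 20 groups. In 7 of them the library was SUM159 replicate 2: EBP (31.2, 23.0, 31.2 and 30.5 CPM in replicates 1 to 4), FEN1 (23.8 CPM against 28.7 to 29.5 in the others), DUSP5 (49.8 against 58.7 to 60.5), SRC (72.5 against 86.4 to 88.6), ERBB2 (97.5 against 112 to 114), TWIST2 (226 against 241 to 244) and NUPR1 (129 against 107 to 108). SUM159 replicate 1 was high for SLC1A4 (52.0 CPM), ACLY (331 CPM), NPTX1 (337 CPM) and MMP2 (531 CPM), and replicate 3 for CENPA (18.7 CPM) and IGFBP5 (99.98 CPM). In MDA-MB-231, replicate 1 was low for ACAT2 (99.5 CPM), PPME1 (71.1 CPM) and HOXB9 (8.54 CPM), and replicate 2 for GADD45B (17.6 CPM). Replicate 3 was high for ATP6V0D2 (11.8 CPM), CSF1R (12.4 CPM), AXL (772 CPM) and TAGLN (10.1 CPM). No call of a line difference under YES1i or of its change in these 21 genes differed in any alternative tried, the fits without these libraries included.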

How the results depend on the processing

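Among 458 results for single genes, 408 kept their call in every alternative tried (up to 25 a result), 50 had a call that changed in at least 1, and none reversed. Leaving out 1 library at a time moved no count of calls or class by over 1.5 times. Large differences under YES1i ran from 3683 to 3789 (MDA-MB-231 higher) and from 3742 to 3898 (SUM159 higher), and changes from 2950 to 3428 toward MDA-MB-231 and from 1932 to 2172 toward SUM159. In the same order, appeared differences ran from 169 to 194 and from 106 to 140, lost ones from 83 to 99 and from 98 to 111, narrowed ones from 162 to 182 and from 108 to 126, and widened ones from 143 to 170 and from 132 to 166. The replicate numbers of the labels were checked for pairing between the lines. Deviations of same-numbered libraries of the lines correlated at -0.0926 to 0.0876 under YES1i and at -0.0518 to 0.0893 in DMSO. Those of different-numbered libraries correlated at -0.188 to 0.179 and at -0.0775 to 0.0638. These values show no clear pairing, but cannot exclude that same-numbered libraries were handled together. Pairing of DMSO with YES1i libraries within a line was not tested in this way. With the replicate block 13883 genes were called under YES1i and 5040 changes, both within 1.5 times.

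Class sizes rest on the thresholds. At an adjusted p under 0.01, there were 1372 changes toward SUM159, with 69 appeared (SUM159), 64 lost (MDA-MB-231), 111 narrowed (MDA-MB-231) and 2 reversed (SUM159). With 1.5-fold as large, 655 and 324 differences appeared (MDA-MB-231 and SUM159), 261 and 386 were lost, 39 and 22 reversed, and 3223 were kept (MDA-MB-231). Taking no difference as not called in the other state gave 89 appeared (MDA-MB-231) and 40 lost (SUM159). With no low-count filter 5632 large differences were higher in SUM159, and with a mean count of 10 or more 3 reversed to SUM159. Among genes at 5 CPM or more in a group, 53 appeared and 1346 were kept (SUM159), 45 were lost and 116 narrowed (MDA-MB-231), and 1 reversed to SUM159. Among genes at 1 CPM or more in every group, a filter added after the data were seen, 67 appeared (SUM159), 51 were lost (MDA-MB-231) and 0 reversed to SUM159. There, 52 and 62 narrowed, 81 and 64 widened, and 1080 and 1062 were kept. The stricter thresholds and filters admit fewer genes by construction, and 1.5-fold admits more.

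Scaling moved the balance of the change calls (52.7% toward MDA-MB-231 by RLE and by DESeq2). RLE and upper quartile scaling also turned the median under YES1i of the Src family list below 0 (0.035 to -0.077 with upper quartile) and that of luminal and basal markers (0.013 to -0.098). Upper quartile scaling alone turned the median change of interferon-stimulated genes from 0.09 to -0.02 and of matrix proteases from 0.07 to -0.04. With a floor of up to 0.194 CPM, differences of genes near 0 in a line are not measured below it.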

Other observations

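Stress and antioxidant genes not described above also moved toward MDA-MB-231. Of 16 chaperones of the unfolded protein response 10 moved toward MDA-MB-231 and none toward SUM159 (8 and 1 with upper quartile scaling), beside 19.1% and 12.1% of all tested genes. PDIA4, a disulfide isomerase, held 259, 270.3, 296 and 286 CPM in MDA-MB-231 and 168, 152, 177 and 157 CPM in SUM159 under YES1i, and its log2 line difference went from -0.08 to 0.76. HSPA5, the chaperone BiP, was at 1.38 against 0.90 in DMSO. Of 21 NRF2 genes 12 moved toward MDA-MB-231 and 1 toward SUM159 (11 and 4 with upper quartile scaling). AKR1C2, an aldo-keto reductase of the same list, was higher in SUM159 (-3.25).

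Surface genes were split. Of 17 tested integrin subunits 9 moved toward MDA-MB-231 and 2 toward SUM159 (8 and 4 with upper quartile scaling), beside 19.1% and 12.1% of all genes. ITGA10, a collagen-binding subunit, crossed from -1.43 to 0.53, with 60.9, 61.2, 58.3 and 54.0 CPM in MDA-MB-231 and 46.9, 34.3, 40.0 and 41.1 CPM in SUM159 under YES1i, while ITGA11, another collagen-binding subunit, was at 0.225 ± 0.0462 and 71.8 ± 3.29 CPM. Of 24 genes of caveolae and focal adhesion 12 moved toward SUM159 and 5 toward MDA-MB-231 (13 and 2 with upper quartile scaling). All genes gave 12.1% and 19.1%, so the 5 is near the background. Of 17 genes of antigen presentation 9 moved toward MDA-MB-231 and 4 toward SUM159, beside 19.1% and 12.1% of all genes. TAPBP, which loads peptides onto MHC class I, went from 0.81 to 1.68, and B2M, the light chain, from -0.89 to -0.20. BCL2, an inhibitor of apoptosis, widened from -0.83 to -3.01, with 5.39, 6.75, 5.52 and 5.70 CPM in MDA-MB-231 and 46.7, 41.7, 47.5 and 52.2 CPM in SUM159 under YES1i, and LIPG, an endothelial lipase, from 0.73 to 6.12, with 98.6, 100.5, 104 and 106 CPM in MDA-MB-231 and 1.96, 1.63, 0.995 and 1.30 CPM in SUM159. B2M, BCL2 and LIPG were named after their values were seen.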
